A study of Mus musculus with 19 samples.

Results

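Seizure was compared with naive mice in the 7 cell classes that the study's authors gave to cells of the medial amygdala, and the comparison was followed past the strongest genes to the stress and early response genes that each class raised. The members are the 8 Act-Seq libraries labelled naive (6) or seizure (2), of 19 samples in the series, and they hold 9603 of the 20679 cells in the authors' table of all cells. Counts were summed per library and class, which the cell names give as AS, EN, MG, MU, OL, OPC and N. The first 6 codes are read here, from their markers, as astrocytes, endothelial cells, microglia, mural cells, mature oligodendrocytes and oligodendrocyte precursors.

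The libraries were made by Drop-seq, which tags each transcript with a unique molecular identifier (UMI) in droplets with barcoded beads. Act-Seq is a dissociation protocol that limits transcription while tissue is taken apart. All mice were male C57BL/6J, and all were 8 weeks old except those of the seizure 1 library, which were 9 weeks old. The sources used here state neither how seizures were induced nor how long after them tissue was taken. No label says that each library holds its own mouse, and p-values therefore reflect library-to-library spread, which may be technical. The naive mice are untreated controls by their label, and a single saline-injected Act-Seq library is described at the end.

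The naive libraries held 43 to 2149 cells and 116492 to 3550199 UMIs, and the seizure libraries held 2154 and 1412 cells with 3629289 and 2312881 UMIs. Naive 6 had too few cells to enter any class, where at least 10 cells were required, and naive 5 did not enter MU, so 5 naive libraries were compared (4 in MU). In their own class the summed marker levels overlapped between groups in every class. The 9 astrocyte markers, for example, stood at 27870 to 32158 CPM (UMIs of a gene scaled to a common library total) in naive and 28061 to 30263 CPM in seizure AS cells. Class N gave no clear reading as neurons: of its 8499 cells, 91.3% held more UMIs of astrocyte markers than of neuron markers. Its naive libraries held 14327 to 16128 CPM of the astrocyte markers, less than AS. They held 4834 to 11953 CPM of the 10 neuron markers, the most of any class (OPC had 1031 to 2126 CPM). It is called class N below. Levels are CPM within a class and library.

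Seizures make neurons fire together, and calcium and cyclic AMP signals then switch on immediate early genes, whose products are mostly transcription factors and signal inhibitors that act within minutes to hours. The same event releases glucocorticoids from the adrenal gland. Their receptor is present in nearly every brain cell and raises a set of genes that includes Tsc22d3, Sgk1, Per1, Ddit4, Nfkbia and the metallothioneins. The gene lists below overlap, because several genes answer to more than one of these signals.

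Over the 7 classes, 124 of 45240 pairs of a class and a gene passed an adjusted p of 0.05, which is 0.274% of pairs, by edgeR's quasi-likelihood test with Benjamini-Hochberg adjustment within each class. Seizure libraries were higher in 113 of these pairs and lower in 11. In 118 pairs every seizure library lay outside the range of the naive libraries. Of all genes tested, both seizure libraries lay above every naive library for 4.21% in AS, 5.65% in EN, 4.85% in MG, 6.47% in MU, 3.76% in OL, 4.48% in OPC and 2.72% in class N. They lay below every naive library for 4.64%, 3.91%, 4.62%, 8.43%, 4.02%, 3% and 3.32% in the same order. AS had 38 such genes (0.359% of 10575 tested), EN 27 (0.681% of 3965), MG 24 (0.345% of 6966), MU 7 (0.686% of 1020), OL 9 (0.121% of 7467), OPC 5 (0.1% of 4997) and class N 14 (0.137% of 10250). The median log2 change over all genes tested lay between -0.025 (EN) and 0.003 (MG) in every class. Leaving out each library in turn kept 53 of the 124 calls in all cases, while 63 were lost without seizure 2 and 45 without seizure 1.

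The 124 pairs belonged to 86 genes, of which 64 passed in 1 class, 12 in 2, 6 in 3, 3 in 4 and 1 in 6. The 10 genes that passed in 3 or more classes were Nfkbia, Nr4a1, Egr1, Cyr61, Btg2, Cdkn1a, Ddit4, Dusp1, Mt1 and Sgk1, which is 0.122% of the 8211 genes tested in at least 3 classes. Of the 86 genes, 49 that passed in a single class were tested in another. For 22 of these the fitted change had the same sign in every other class tested, and for 15 the change differed from the other classes by test.

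The promoters of 3 of these 10 genes are shown as examples: an inhibitor of NF-kappaB, an activity-induced nuclear receptor and a metallothionein. Nfkbia is also in the glucocorticoid responsive list below, and glucocorticoid response elements were not searched. RefSeq (GRCm38.p6) promoter rows, 250 bases before to 50 after the start, matched 8 of the 10 genes with 14 promoters in all. Sgk1 has 6 starts and Cdkn1a 2. No promoter of Egr1 or Cyr61 was in the set searched. In the first sequence capitals mark an NF-kappaB consensus match, in the second the letters TGCGTCA, a form close to the cyclic AMP response element TGACGTCA, and in the third metal response element matches (TGCACNC or TGCGCNC). The letters TGCGTCA were read off the Nr4a1 promoter itself, so their count there is a description.
Nfkbia, chr12:55492598-55492897, minus strand: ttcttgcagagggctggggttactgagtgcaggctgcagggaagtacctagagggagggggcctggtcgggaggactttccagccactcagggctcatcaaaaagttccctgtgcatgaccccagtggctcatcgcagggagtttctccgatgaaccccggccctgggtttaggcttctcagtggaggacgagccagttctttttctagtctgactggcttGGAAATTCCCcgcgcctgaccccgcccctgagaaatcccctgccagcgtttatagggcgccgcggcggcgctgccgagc
Nr4a1, chr15:101266596-101266895, plus strand: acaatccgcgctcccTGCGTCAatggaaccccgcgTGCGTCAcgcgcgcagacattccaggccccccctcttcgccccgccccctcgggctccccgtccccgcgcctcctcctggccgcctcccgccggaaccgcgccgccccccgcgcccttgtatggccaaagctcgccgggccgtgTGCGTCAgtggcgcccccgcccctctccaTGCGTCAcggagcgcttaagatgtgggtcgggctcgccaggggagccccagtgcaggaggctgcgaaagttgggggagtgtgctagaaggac
Mt1, chr8:94178839-94179138, plus strand: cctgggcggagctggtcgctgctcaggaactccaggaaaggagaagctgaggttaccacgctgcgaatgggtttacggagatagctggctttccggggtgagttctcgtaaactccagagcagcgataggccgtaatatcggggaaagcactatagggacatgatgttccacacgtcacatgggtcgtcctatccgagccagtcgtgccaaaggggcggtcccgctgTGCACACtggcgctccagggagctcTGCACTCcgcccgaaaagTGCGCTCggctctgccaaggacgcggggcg

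All motifs were searched on both strands over 32851 promoters of the same length, none of them on chromosome 18. Egr1 lies on that chromosome, so its promoter was left out with the rest of it. Matches of different motifs may share bases. TGCGTCA occurred 4 times in the Nr4a1 promoter and at least once in 2.12% of all promoters. The NF-kappaB consensus was in 2 of the 14 promoters (Nfkbia and Nr4a1) against 8.46% of all, and TGACGTCA in 2 (Btg2 and Dusp1) against 1.79%. Metal response element letters were in 7 of the 14 against 25.7% of all promoters, and the Mt1 promoter held 3 matches. The AP-1 letters TGANTCA (7.81% of all) and the CArG box (1.63%) were in none of the 14, which do not include promoters of Egr1 or Cyr61.

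Nfkbia encodes the inhibitor that holds NF-kappaB in the cytoplasm and is itself induced by NF-kappaB and by glucocorticoids (chromosome 12, 55489410 to 55492647). It passed in more classes than any other gene, with log2 changes of 1.55 ± 0.20 (SE) in AS, 1.37 ± 0.25 in EN, 2.33 ± 0.24 in MG, 1.93 ± 0.40 in MU, 1.90 ± 0.28 in OL and 1.67 ± 0.35 in OPC. In MG, naive libraries 1 to 5 had 236, 260, 256, 258 and 42.4 CPM and the seizure libraries had 1051 and 1257 CPM. In EN, where its level was highest, the naive libraries had 1109, 2308, 1330, 1118 and 1197 CPM and the seizure libraries 3405 and 3892 CPM. Both seizure libraries lay above every naive library in all 7 classes, class N included, where naive libraries averaged 53.1 ± 19.1 CPM (SD, n = 5) and seizure libraries 108 ± 14.1 CPM (n = 2) and the change did not pass (log2 1.05, adjusted p = 0.0808). In no class did the Nfkbia change pass the test of a difference from the other classes (adjusted p 0.644 to 1.00 over 7 tests of the difference), and the differences ranged from -0.71 ± 0.28 in class N to 0.70 ± 0.26 in MG. The OL and OPC calls did not pass by DESeq2. With age as a covariate or a replicate block, the MU and OPC calls did not pass. The MU call was also lost with no filter on low counts and with the naive and seizure libraries only. The EN call was lost without seizure 2 (1.26, adjusted p = 0.182), the MU call without naive 2, naive 4, seizure 1 or seizure 2 (1.63 to 1.91, adjusted p 0.0502 to 0.165) and the OPC call without naive 4, seizure 1 or seizure 2 (1.58 to 1.75, adjusted p 0.0586 to 0.398).

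Nr4a1 encodes an orphan nuclear receptor that cells make within minutes of calcium or cyclic AMP signals (chromosome 15, 101254269 to 101274795). In AS the naive libraries had 0.986, 2.67, 1.88, 7.21 and 0 CPM and the seizure libraries 76.6 and 54.8 CPM (log2 4.63 ± 0.48, adjusted p = 3.3e-08). In OPC, where it was not near 0 before, the naive libraries had 95.9, 70.2, 86.3, 70.5 and 106 CPM and the seizure libraries 519 and 556 CPM (2.68 ± 0.29). The groups did not overlap in any of the 7 classes. EN rose by 4.54 ± 0.53 and class N by 1.96 ± 0.40, while MG (2.32, adjusted p = 0.409), MU (4.57, 0.104) and OL (1.42, 0.749) did not pass. The class N call was lost without naive 2, naive 3, seizure 1 or seizure 2 (1.68 to 2.04, adjusted p 0.0606 to 0.274).

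Egr1, a zinc finger transcription factor of the same early wave, rose in AS, EN, OPC and class N. In OPC the naive libraries had 40, 0, 25.9, 10.1 and 0 CPM and the seizure libraries 556 and 1068 CPM, a log2 change of 5.50 ± 0.42 (adjusted p = 3.81e-14). The OPC change did not pass by DESeq2 (5.64, adjusted p = 0.46). In AS the naive libraries had 4.93, 5.34, 13.1, 3.6 and 5.64 CPM and the seizure libraries 210 and 167 CPM (4.70 ± 0.30). Neither pair of groups overlapped. In OPC, whose library sums come from as few as 24 naive cells, the share of cells with an Egr1 UMI after thinning every cell to 600 UMIs was 28.8% ± 14.4 in seizure and 0.37% ± 0.83 in naive libraries. MG had 20 Egr1 UMIs in seizure against 4 in naive libraries, with no overlap in CPM, and did not pass (3.33, adjusted p = 0.183). In MU the change was 2.55 (adjusted p = 0.452). The EN call was lost without naive 1, naive 3 or seizure 2 (1.63 to 2.34, adjusted p 0.0664 to 1.00).

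Cyr61, a secreted matrix protein that cells make on stretch or serum contact, rose in AS, EN, MU and class N. In AS the naive libraries had 36.5, 73.4, 25.4, 32.4 and 22.6 CPM and the seizure libraries 230 and 228 CPM (2.54 ± 0.23, adjusted p = 1.89e-09). In EN it stood at 21.8 to 100 CPM against 186 and 294 CPM (1.95 ± 0.47). In OPC the groups overlapped, at 40, 44.7, 34.5, 70.5 and 0 CPM against 51.4 and 49.4 CPM (0.24, adjusted p = 0.999), and the OPC change lay below that of the other classes (difference -2.88 ± 0.64, adjusted p = 0.0294). That difference, chosen after its values were seen, was lost without naive 1, naive 2, naive 4, seizure 1 or seizure 2, and in the fit without the library block (adjusted p = 0.238). The EN call was lost without naive 1, naive 3, seizure 1 or seizure 2 (1.58 to 2.27, adjusted p 0.0826 to 1.00) and the class N call (2.43 ± 0.51) without naive 3, seizure 1 or seizure 2 (2.24 to 2.47, adjusted p 0.0704 to 0.672).

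**Figure D1:**
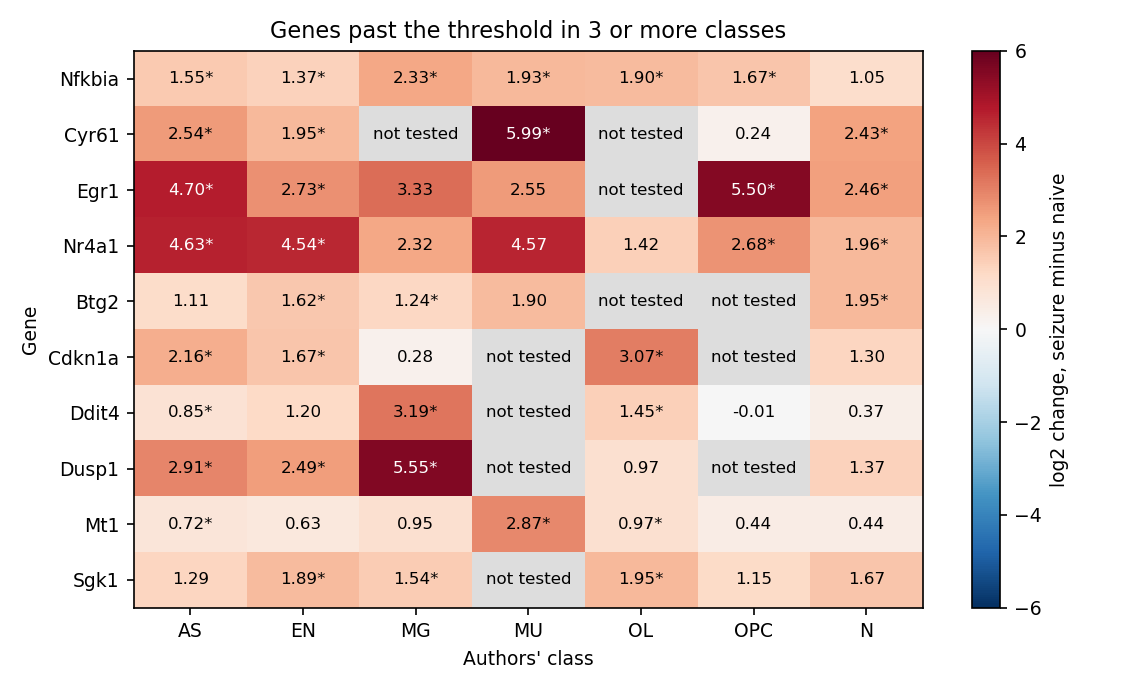
Log2 change, seizure minus naive, of the 10 genes past the threshold in 3 or more classes (rows) in each of the authors' classes (columns). An asterisk marks an adjusted p under 0.05, and grey a gene too low to test in that class. Nfkbia is above 1 in all 7 classes, while Ddit4 runs from -0.01 in OPC to 3.19 in MG.

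Dusp1 passed in AS, EN and MG, and Cdkn1a in AS, EN and OL. Dusp1, a phosphatase that switches off MAP kinases, had naive values of 9.86, 6.67, 9.39, 1.8 and 0 CPM and seizure values of 55 and 52.2 CPM in AS (2.91 ± 0.38). In MG it had 1 UMI in all naive libraries and 33 in seizure, a ratio of 70.1 with a 95% counting interval of 11.7 to 2851. EN rose by 2.49 ± 0.34, from 43.8 to 196 CPM in naive to 382 and 415 CPM in seizure libraries. Cdkn1a, an inhibitor of cell cycle kinases that also answers to glucocorticoids and to p53, rose in EN from 219 to 653 CPM to 1550 and 1410 CPM (1.67 ± 0.28). Its AS change was 2.16 ± 0.37 (not past the threshold by DESeq2, adjusted p = 0.0592) and its OL change 3.07 ± 0.58, and the OL call was lost without naive 1 or seizure 2 (2.33 to 2.65, adjusted p 0.0556 to 0.917). In MG its change was 0.28 (adjusted p = 0.989), below that of the other classes (difference -1.80 ± 0.46, adjusted p = 0.0449), and the MG difference was lost without naive 1, naive 2, naive 3, naive 5, seizure 1 or seizure 2, and in the fit without the library block (adjusted p = 0.272).

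Btg2, an antiproliferative gene of the early response, rose in EN (1.62 ± 0.32), MG (1.24 ± 0.27) and class N (1.95 ± 0.37). In MG the naive libraries had 134, 132, 83.1, 133 and 127 CPM and the seizure libraries 270 and 300 CPM, with no overlap. These calls were less secure: EN was lost without seizure 2 (1.5, adjusted p = 0.152), MG without naive 3, seizure 1 or seizure 2 (1.11 to 1.31, 0.0538 to 0.464) and class N without naive 3 or seizure 2 (1.72 to 1.78, 0.0502 to 0.193). Sgk1, a kinase that glucocorticoids induce, rose in MG from 445, 517, 319, 336 and 254 CPM to 1106 and 1151 CPM (1.54 ± 0.22, adjusted p = 7.35e-06). In OL the naive libraries had 203, 1619, 111, 187 and 125 CPM and the seizure libraries 1636 and 2093 CPM (1.95 ± 0.42), so that naive 2 stood almost at the level of seizure 1. The OL call was lost without naive 1, naive 3, naive 4, naive 5, seizure 1 or seizure 2 (1.66 to 2.15, adjusted p 0.0579 to 0.377), while without naive 2 the OL change was 3.54 (adjusted p = 3.35e-17), and the EN call (1.89 ± 0.38) without seizure 2 (1.15, adjusted p = 1.00).

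**Figure D2:**
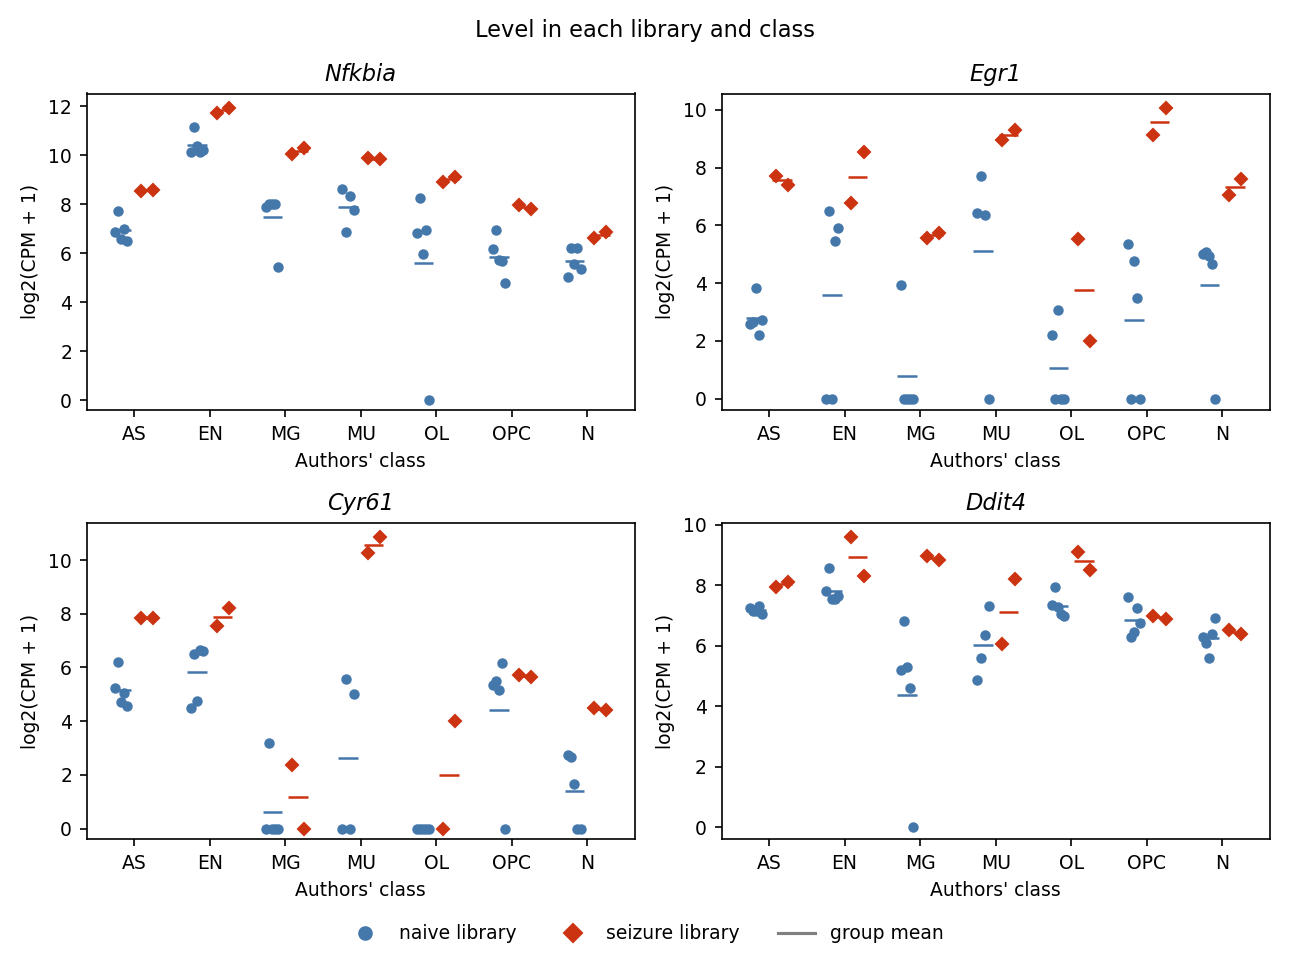
Level of Nfkbia, Egr1, Cyr61 and Ddit4, as log2(CPM + 1), in each library (points) and class (horizontal axis), with the mean of each group as a bar. Both seizure libraries lie above every naive library in all classes for Nfkbia. Cyr61 separates the groups most widely in MU and Ddit4 in MG.

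The glucocorticoid responsive list held 29 genes, and 30 of the 133 class-gene pairs tested were raised and none lowered (22 pairs with DESeq2). AS raised 9 of 26 (Cdkn1a, Ddit4, Dusp1, Mt1, Mt2, Nfkbia, Per1, Rhob and Tsc22d3), MG 7 of 19, OL 5 of 24, EN 4 of 18, MU 4 of 9 and OPC 1 of 13. The medians were 0.82 in AS, 0.90 in EN, 0.80 in MG, 1.62 in MU, 0.80 in OL and 0.58 in OPC, beside medians over all genes within 0.03 of 0. Class N raised none of 24 by edgeR (11 at an unadjusted p under 0.05, 0 by DESeq2), with all 24 fitted changes above 0 and a median of 0.49. Rhob, a small GTPase, rose in AS by 0.98 ± 0.20 and was lost without seizure 1 or seizure 2 (0.89 to 1.08, adjusted p 0.0714 to 0.346). These counts describe genes that passed a filter on low counts, partly through the group where they were high. The list was also drawn up with results of these data known, so its direction is not independent evidence.

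The immediate early transcription factors were counted in the same way. Of 19 genes, class N raised 8 of 13 tested, EN 6 of 11, AS 4 of 8, OPC 2 of 4, MU 1 of 5, and MG none of 6 and OL none of 3 by edgeR (3 and 2 raised at an unadjusted p under 0.05, 0 by DESeq2). The medians were 2.46 in class N, 2.25 in EN, 2.74 in AS, 3.31 in MU, 1.70 in OPC, 0.73 in OL and 0.59 in MG. In MU all 5 were raised at an unadjusted p under 0.05, and 3 passed by DESeq2. For Junb, a partner of Fos chosen here after its values were seen, the MG change of 0.65 (adjusted p = 0.774) lay below that of the other classes by 2.13 ± 0.35 (adjusted p = 1.55e-05), and that difference was lost without seizure 2. For Jun, also chosen after its values were seen, MG changed by -0.11 and differed by -1.53 ± 0.32 (adjusted p = 0.00301), lost without seizure 1. Fos itself was too low to test in MG, MU, OL and OPC, with no UMI in 5 naive MG libraries and 8 in seizure MG libraries.

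**Figure D3:**
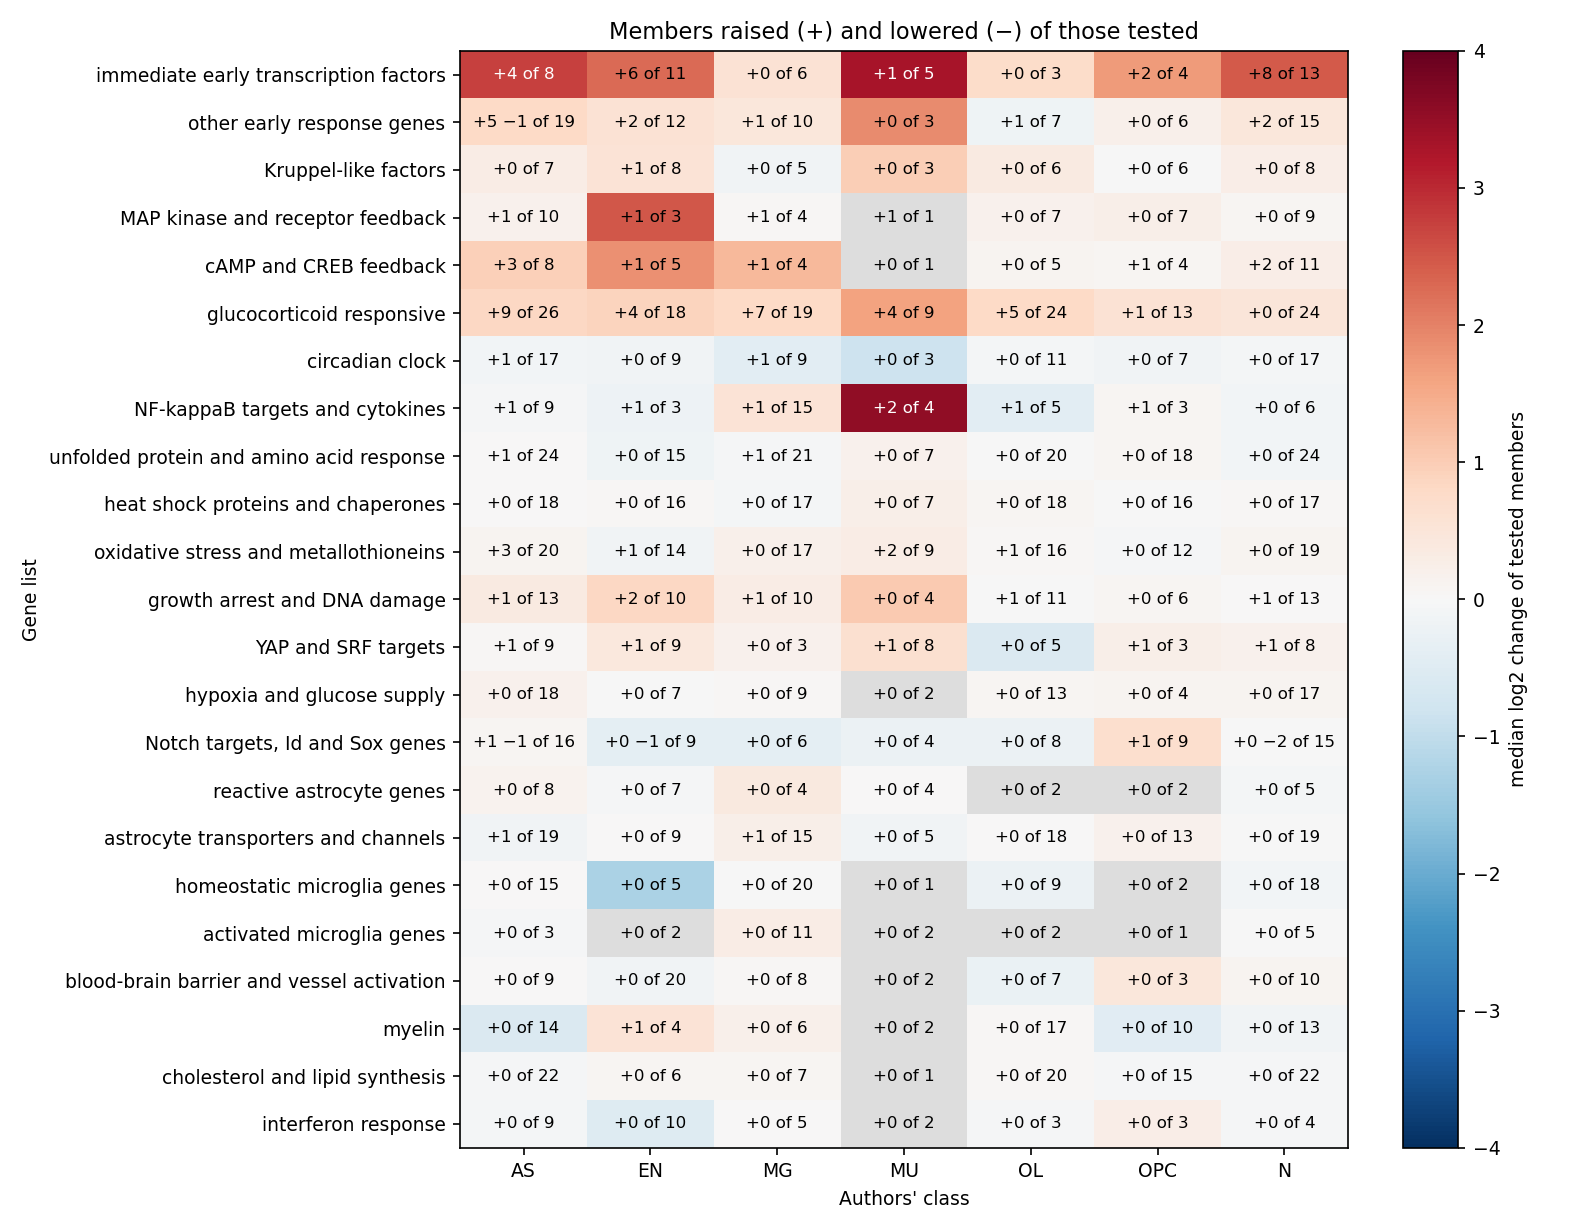
Median log2 change (colour) of 23 gene lists in each class, with the number of members raised (+) and lowered (−) of those tested written in each cell and grey where fewer than 3 were tested. Glucocorticoid responsive genes have raised members in 6 classes and immediate early transcription factors in 5, while the rows for heat shock, hypoxia and interferon genes have none.

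AS had 32 raised genes (0.303% of those tested) and 6 lowered (0.0567%). Fos, the partner of Jun in AP-1, stood at 13.8, 20, 15, 23.4 and 11.3 CPM in naive and 360 and 397 CPM in seizure libraries (4.49 ± 0.26, adjusted p = 3.5e-15). Dio2, which makes active thyroid hormone in astrocytes, stood at 81.8, 107, 78.9, 46.9 and 73.3 CPM against 289 and 358 CPM (2.04 ± 0.19). Neither gene's groups overlapped. Arl4d, a small GTPase, had 1 UMI in 5 naive libraries and 61 in seizure (ratio 122, counting interval 21 to 4883). Txnip, which binds thioredoxin and limits glucose uptake, rose from 10.8 to 28 CPM to 86.4 and 91.3 CPM (2.32 ± 0.27). Zfp36, which destabilises mRNAs, rose by 2.90 ± 0.46, Junb by 3.75 ± 0.43 and the clock gene Per1 by 1.94 ± 0.27, all without overlap and kept without any 1 library.

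Hes5, a Notch target that keeps glia and progenitors undifferentiated, was the lowered AS gene with the smallest p (chromosome 4, 154960923 to 154962371). The naive libraries had 1004, 840, 662, 878 and 699 CPM and the seizure libraries 359 and 236 CPM, a fall of 1.44 ± 0.20 on the log2 scale (log2 -1.44, adjusted p = 1.87e-05). The groups did not overlap, and the call held without any 1 library. Class N showed the same gene at 267, 209, 229, 248 and 139 CPM in naive and 98.9 and 93.3 CPM in seizure libraries (-1.24 ± 0.19). Ier5, an early response gene, was lowered in AS (-1.54 ± 0.34), from 34.5 to 67.7 CPM to 19.6 and 9.13 CPM, and lost its call without seizure 2 (-1.16, adjusted p = 0.874). Senp8 (-2.40 ± 0.52) and Rrnad1 (-1.18 ± 0.24) were also lowered and were lost without seizure 1 or seizure 2, with adjusted p of 0.164 to 0.723 and 0.104 to 0.456. Of the 67 pairs tested for Notch targets, Id and Sox genes, 4 were lowered (Hes5 in AS and class N, Id3 in EN and class N) and 2 raised (Id1 in AS and Id2 in OPC). The Id1 call (0.92 ± 0.20) was lost without naive 1, seizure 1 or seizure 2 (0.80 to 1.00, adjusted p 0.0916 to 0.53).

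The metallothioneins Mt1 and Mt2, which bind zinc and copper, were among the most abundant genes that rose in AS. Mt1 stood at 6304, 8165, 6563, 7127 and 5516 CPM in naive and 11011 and 10882 CPM in seizure libraries (0.72 ± 0.14). Mt2 stood at 1669 to 3305 CPM against 5235 and 4055 CPM (0.95 ± 0.20). The Mt1 call was lost without seizure 1 or seizure 2 (0.70 to 0.73, adjusted p 0.138 to 0.221) and the Mt2 call without seizure 1 (0.78, adjusted p = 0.662). Tsc22d3, a glucocorticoid-induced leucine zipper protein, rose by 1.54 ± 0.23 with 637 and 1215 CPM in seizure libraries, and lost its call without seizure 2 (0.98, adjusted p = 0.305). Ddit4, an inhibitor of mTOR, rose by 0.85 ± 0.15 and lost its call without seizure 2 (0.76, adjusted p = 0.182).

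EN had 25 raised genes (0.631% of those tested) and 2 lowered (0.0504%), led by Apold1, an endothelial early response gene (chromosome 6, 134981718 to 134986836). The naive libraries had 145, 334, 78.8, 158 and 137 CPM and the seizure libraries 2035 and 3347 CPM (3.95 ± 0.31, adjusted p = 6.31e-11). 8430408G22Rik stood at 72.5, 189, 158, 115 and 177 CPM against 818 and 925 CPM (2.65 ± 0.29). Both separated the groups completely. Maff, a small Maf transcription factor, rose by 2.70 ± 0.44 to 240 and 234 CPM from 14.5 to 61.3 CPM. Fosb, another partner of Jun, had 3 UMIs in naive and 73 in seizure libraries (ratio 39.4, counting interval 13 to 195). Many EN calls rested on seizure 2, among them those of Nfkbia, Egr1, Btg2, Sgk1 and Cyr61 above. Others included Klf6, a zinc finger factor (1.21 ± 0.24, and 1.02 without seizure 2), and Jun (1.35, and 0.74 without it). Atf3, a stress-induced factor (2.25 ± 0.53, and 1.75 without seizure 2), was a further case. The Atf3 call was also lost without naive 1, naive 3 or naive 4 (adjusted p 0.0524 to 0.121).

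S1pr1, the receptor for sphingosine 1-phosphate on vessels, rose in EN from 450, 730, 613, 373 and 451 CPM to 1119 and 1116 CPM (1.08 ± 0.23). Its call was lost without seizure 1 or seizure 2 (1.07 to 1.09, adjusted p 0.237 to 0.284). Id3, an inhibitor of basic helix-loop-helix factors, stood at 2125, 1992, 1873, 1591 and 1727 CPM in naive and 731 and 822 CPM in seizure libraries (-1.26 ± 0.25), with no overlap, and was lost without seizure 1 or seizure 2 (-1.35 to -1.16, adjusted p 0.22 to 0.454). Sox18, an endothelial transcription factor, was lowered (-1.96 ± 0.46), from 118 to 486 CPM to 104 and 51.9 CPM, and was lost without naive 1, naive 2, seizure 1 or seizure 2 (-2.58 to -1.62, adjusted p 0.0571 to 0.686). The neuronal transcript Meg3 also passed in EN, through a single library. Meg3 had 142 CPM in seizure 1 and 1972 CPM in seizure 2, and without seizure 2 the change was -0.23. It was also lost without naive 1 or naive 3. The 10 neuron markers summed to 219 to 659 CPM in naive and 491 to 2473 CPM in seizure EN cells, and the 9 oligodendrocyte markers to 314 to 1161 and 906 to 2707 CPM. No neuron or oligodendrocyte marker was at 0 in EN, and the part of these markers in the other EN results was not tested.

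MG had 23 raised genes (0.33% of those tested) and 1 lowered gene (0.0144%), and its leading genes are known glucocorticoid targets. Tsc22d3 stood at 116, 164, 160, 78 and 42.4 CPM in naive and 591 and 1075 CPM in seizure libraries (2.74 ± 0.26, adjusted p = 2.2e-10). Ddit4 stood at 35.3, 112, 38.3, 23.4 and 0 CPM against 498 and 458 CPM (3.19 ± 0.34), and Per1 at 0 to 40 CPM against 110 and 206 CPM (3.15 ± 0.44). Arrdc3, an arrestin-like regulator of receptor traffic, rose from 14.1, 24, 25.6, 15.6 and 21.2 CPM to 156 and 147 CPM (2.94 ± 0.43). None of the 4 overlapped, and all 4 held without any 1 library. DESeq2 gave no adjusted p for Arrdc3. Cebpb, a transcription factor of inflammation and stress, rose by 1.33 ± 0.25 and was lost without seizure 2 (1.07, adjusted p = 0.496). The lowered gene, D4Wsu53e, stood at 1463 to 2179 CPM in naive and 1055 and 675 CPM in seizure libraries (-0.99 ± 0.19) and was lost without seizure 2 (-0.71, adjusted p = 0.999). Among genes outside the rule for names, chosen after their values were seen, Tagap (2.09 ± 0.33), Slco4a1 (2.42 ± 0.39), Rcan1 (2.08 ± 0.34) and Rgs1 (2.35 ± 0.39) also held without any 1 library.

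Genes that mark the resting or activated state of microglia gave no call in MG. Of all genes tested in MG 0.345% passed, so lists of these sizes would be likely to hold none in any case. None of the 20 homeostatic genes tested there, such as P2ry12 and Tmem119, passed by edgeR, with 0 at an unadjusted p under 0.05 and 0 by DESeq2. None of the 11 activated microglia genes passed either, with 2 raised at an unadjusted p under 0.05 and 0 by DESeq2. Over all classes the counts were 0 of 70 pairs (2 lowered at an unadjusted p under 0.05) and 0 of 26 (3 raised).

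MU had 7 raised genes in sums of 24 and 21 seizure cells. Errfi1, an inhibitor of epidermal growth factor receptors, stood at 84.2, 70.1, 122 and 188 CPM in naive libraries 1 to 4 and 1638 and 1294 CPM in seizure libraries (3.76 ± 0.46, adjusted p = 0.000169). Jun stood at 0, 23.4, 81.4 and 94.2 CPM against 786 and 918 CPM (4.22 ± 0.74). Mt1 stood at 365, 397, 244 and 345 CPM against 2260 and 2504 CPM (2.87 ± 0.51). All 3 separated the groups by a wide gap. Cyr61 had 3 UMIs in naive and 81 in seizure libraries (ratio 66.8, counting interval 22.1 to 331). Ccl2, a chemokine that attracts monocytes, had 0 UMIs among 134892 in 4 naive libraries and 75 in seizure libraries, and with the naive group set to a floor of 3 counts in all its level was at least 61.9-fold higher. It did not pass by DESeq2 (adjusted p = 0.302). It was 1114 and 1711 CPM in the seizure libraries. Mt2 rose by 3.23 ± 0.52, to 1343 and 1127 CPM from 28.1 to 234 CPM. The 6 leptomeningeal fibroblast markers summed to 659 to 8711 CPM in naive and 5667 to 14314 CPM in seizure MU cells, with none at 0, and their part in the MU results was not tested.

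OL had 9 raised genes and no lowered gene by edgeR (386 genes of either direction at an unadjusted p under 0.05, 5 past the threshold by DESeq2). Polr3e, a subunit of RNA polymerase III, led them at 151, 332, 155, 145 and 125 CPM in naive and 819 and 818 CPM in seizure libraries (2.14 ± 0.22, adjusted p = 2.18e-08; chromosome 7, 120917744 to 120947432). It and Nfkbia held without any 1 library, and Nfkbia did not pass by DESeq2 (adjusted p = 0.148). Hist1h1c, a linker histone, rose by 1.68 ± 0.24 and was lost without seizure 1 (1.40, adjusted p = 0.0794), as was Ddit4 (1.45 ± 0.24, and 1.15 with adjusted p = 0.28). Phactr3, an actin and phosphatase binding protein, rose by 1.43 ± 0.24 and was lost without seizure 2 (1.22, adjusted p = 0.133). Mt1 rose by 0.97 ± 0.21 and was lost without naive 3, naive 4 or seizure 1 (0.68 to 0.97, adjusted p 0.055 to 0.996). None of the 17 myelin genes tested in OL passed by edgeR (2 raised at an unadjusted p under 0.05, 1 by DESeq2), with a median of 0.03. Of all genes tested in OL 0.121% passed, so so short a list would be likely to hold none in any case.

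OPC had 5 raised genes and no lowered gene by edgeR (250 genes at an unadjusted p under 0.05, 2 past the threshold by DESeq2). Beside Egr1, Nr4a1 and Nfkbia these were F3 and Id2. F3, the tissue factor that starts clotting, stood at 55.9, 128, 104, 40.3 and 133 CPM in naive and 290 and 377 CPM in seizure libraries (1.88 ± 0.33). Id2, an inhibitor of basic helix-loop-helix factors, stood at 216 to 399 CPM against 631 and 784 CPM (1.23 ± 0.28). Neither overlapped. F3 was lost without seizure 2 (1.68, adjusted p = 0.192) and Id2 without naive 1, naive 2, naive 4, seizure 1 or seizure 2 (1.07 to 1.40, adjusted p 0.0586 to 1.00).

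Class N had 12 raised genes (0.117% of those tested) and 2 lowered (0.0195%). Fos stood at 9.3, 4.07, 7.64, 8.85 and 0 CPM in naive and 119 and 207 CPM in seizure libraries (4.40 ± 0.33, adjusted p = 1.47e-12). Arc, which carries activity to the synapse, stood at 15, 2.72, 10.9, 13.3 and 0 CPM against 67.4 and 104 CPM (2.98 ± 0.32). Egr4, a relative of Egr1, stood at 8.59, 5.43, 9.82, 4.43 and 0 CPM against 58.6 and 74.3 CPM (3.14 ± 0.37). Each was higher in both seizure libraries than in any naive library, and each held without any 1 library, as did Egr1, Junb (2.86 ± 0.31), Fosb (3.99 ± 0.51) and Hes5. Nr4a3 (2.80 ± 0.51) was lost without seizure 1 (1.95, adjusted p = 1.00), Fosl2 (1.99 ± 0.40) without naive 1, seizure 1 or seizure 2 (1.83 to 2.11, 0.069 to 0.205) and Id3 (-0.94 ± 0.20) without naive 2, naive 3, seizure 1 or seizure 2 (-0.96 to -0.79, 0.0692 to 0.699).

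Because most class N cells carried more astrocyte than neuron markers, the class was also divided by marker UMIs, a choice made after seeing the data. In cells with more astrocyte markers 15 genes passed, and Fos changed by 4.52 ± 0.32, Egr1 by 2.37 ± 0.22, Arc by 3.13 ± 0.32 and Hes5 by -1.29 ± 0.18. In cells with more neuron markers, from 4 naive and 2 seizure libraries of 17 to 114 cells, 1 gene passed, which was not among the 14. Of the 14, only Egr1 passed the filter on low counts in these cells, so the test could not call the others. There Fos stood at 22.4, 0, 14.1 and 0 CPM in naive and 103 and 165 CPM in seizure libraries. Egr1 stood at 61.7, 14.1, 28.3 and 0 CPM against 213 and 299 CPM (2.85 ± 0.69, adjusted p = 0.280). Both were higher in both seizure libraries. Of the 14, only Arc (22.4, 0, 28.3 and 37.7 against 31.6 and 105 CPM) and Hes5 overlapped between groups. Several of the others stood at 0 CPM in naive libraries. Of the class N cells, 2293 are also in the authors' neuron table, and in those alone 8 genes passed, 6 of them among the 14. Of these 2293 cells 91.6% held more astrocyte than neuron marker UMIs, beside 91.3% of all class N cells.

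**Figure D4:**
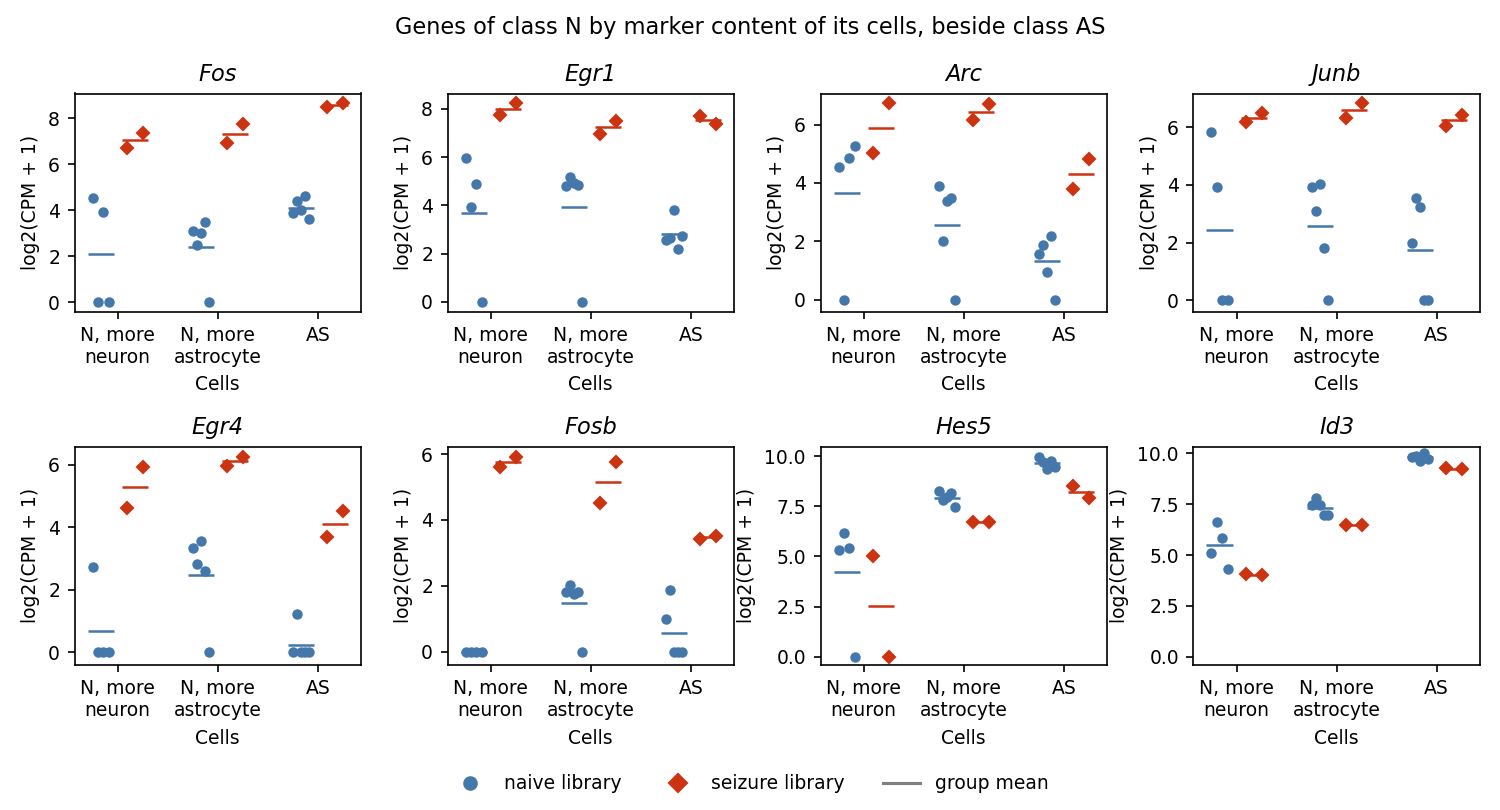
Level of 8 class N genes, as log2(CPM + 1), in class N cells with more neuron or more astrocyte marker UMIs and in AS cells, with a point for each library and a bar for each group mean. In the cells with more neuron markers the seizure libraries lie above every naive library for Fos and Egr1 and overlap them for Arc.

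The test of the difference asked whether the change in a class departed from the mean change in the other classes tested, in a single fit with each library as a block. It found 57 of 43017 pairs (0.133%), 36 of them above the other classes, and 26 of the 109 called pairs that could be tested. MU had 18 such pairs (1.83% of 984), MG 17 (0.261% of 6523), EN 11 (0.29% of 3790), OL 7 (0.0958% of 7306), AS 2 (0.0204% of 9828) and OPC 2 (0.0403% of 4963). Class N had none of 9623 by edgeR, with 268 at an unadjusted p under 0.05. The difference test was not run in DESeq2.

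In MG, Ddit4 exceeded the other classes by 2.41 ± 0.34 and Tsc22d3 by 1.94 ± 0.29, and both differences held without any 1 library. Arrdc3 exceeded them by 2.58 ± 0.45 and was lost without seizure 1. In MU, Cyr61 (4.23 ± 0.75), Jun (3.39 ± 0.60), Mt2 (2.29 ± 0.52) and Mt1 (2.05 ± 0.41) held without any 1 library, although Mt2 did not pass in the fit without the library block (adjusted p = 0.0795), and Errfi1 (2.62 ± 0.48) was lost without naive 2. In EN, Tmcc3, a coiled-coil membrane protein, rose by 2.05 ± 0.36 and exceeded the other classes by 2.04 ± 0.36, and in OL Polr3e exceeded them by 1.97 ± 0.29, and both held without any 1 library. Arl4d in AS exceeded EN and OL by 4.74 ± 0.77 and was lost without seizure 1 or seizure 2. Tsc22d3 in OL, chosen after its values were seen, changed by -0.10 and lay below the other classes by 1.37 ± 0.29 (difference -1.37, adjusted p = 0.0073), which was lost without seizure 2 and in the fit without the library block (adjusted p = 0.998).

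**Figure D5:**
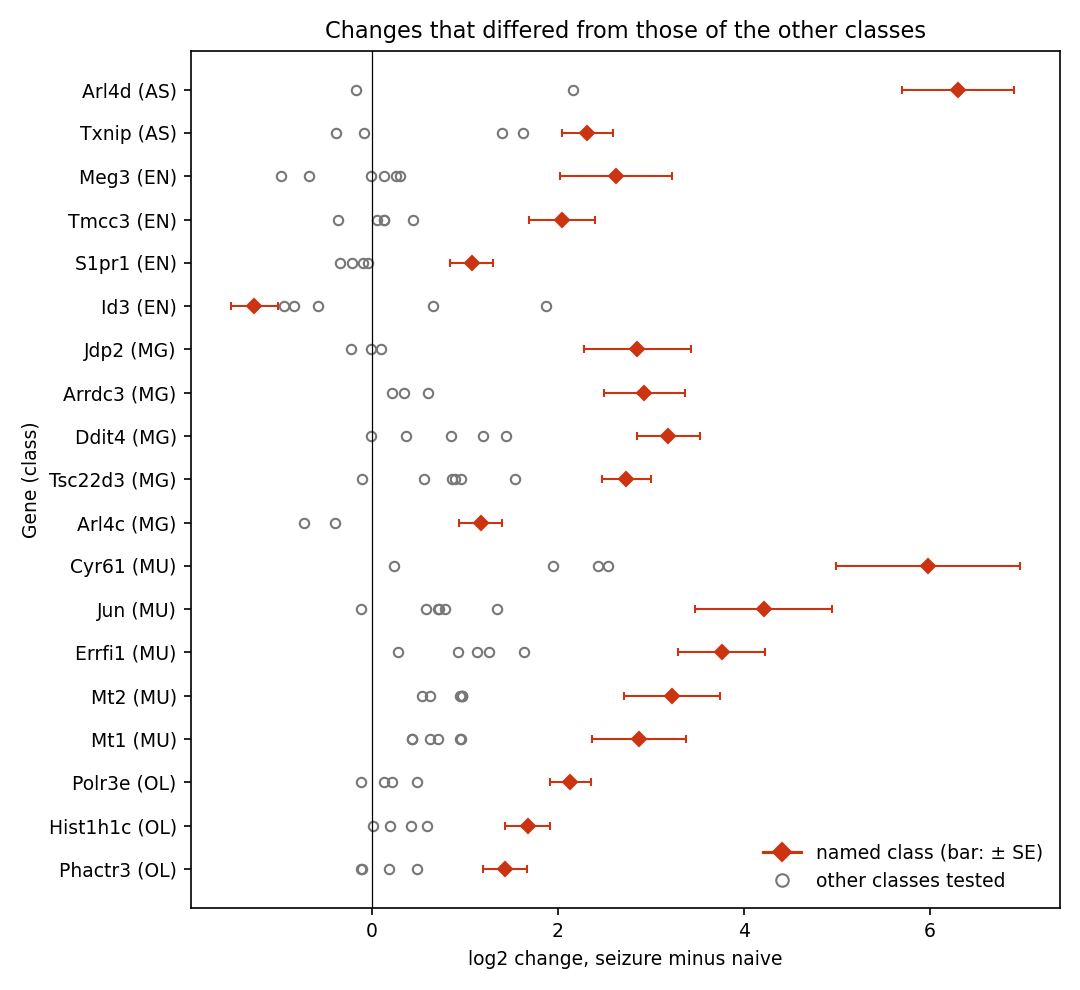
Log2 change, seizure minus naive, of 19 genes in the class named in brackets (diamonds, bars ± SE) and in the other classes in which each was tested (open circles). Cyr61 in MU stands at 5.99 beside 0.24 to 2.54 elsewhere, and Ddit4 in MG at 3.19 beside -0.01 to 1.45.

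Several stress lists gave no call. Only 0.274% of all class-gene pairs passed, so lists of these sizes would be likely to hold none in any case. No heat shock or chaperone pair passed of 109 by edgeR (5 raised at an unadjusted p under 0.05, 0 by DESeq2), and no hypoxia and glucose supply pair of 70 (9 and 0). Reactive astrocyte genes had 0 of 32 (2 and 0), blood-brain barrier genes 0 of 59 (5 raised and 1 lowered, and 0), cholesterol synthesis genes 0 of 93 (2 and 3, and 0) and interferon genes 0 of 36 (1 lowered, and 0). The unfolded protein list raised 2 of 129, Ppp1r15a in AS and Cebpb in MG. Ppp1r15a, which restores translation after stress, rose by 1.31 ± 0.30 and was lost without naive 1, naive 3, naive 4, seizure 1 or seizure 2 (1.11 to 1.52, adjusted p 0.0598 to 0.965). NF-kappaB targets and cytokines had 7 raised of 45, which were Nfkbia in 6 classes and Ccl2 in MU, so that no other target of that list passed.

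Other lists had calls that came from a few genes. Oxidative stress and metallothionein genes had 7 raised of 107 pairs, which were Mt1 in AS, MU and OL, Mt2 in AS and MU, and Txnip in AS and EN. The EN call of Txnip (1.40) was lost without naive 1, naive 3, naive 4 or seizure 1 (0.73 to 1.33, adjusted p 0.0784 to 0.92). Growth arrest and DNA damage genes had 6 raised of 67, which were Btg2 and Cdkn1a in 3 classes each. Genes of cAMP and CREB feedback, which cyclic AMP induces through its response element, had 8 raised of 38. These were Nr4a1 in 4 classes, Per1 in AS and MG, Fosl2 in class N, and in AS Sik1, a kinase that restrains CREB coactivators (3.70, and 3.31 with adjusted p = 0.113 without seizure 2). The Fosl2 call (1.99) was lost without naive 1, seizure 1 or seizure 2 (1.83 to 2.11, adjusted p 0.069 to 0.205). MAP kinase and receptor feedback genes had 4 raised of 41 (Dusp1 in 3 classes and Errfi1 in MU), YAP and SRF targets 5 of 45 (Cyr61 in 4 classes and F3 in OPC), and clock genes 2 of 73 (Per1 in AS and MG). The other early response genes had 11 raised and 1 lowered of 72, Kruppel-like factors 1 raised of 43 (Klf6 in EN, lost without seizure 2, 1.02 with adjusted p = 0.387), and astrocyte transporters and channels 2 raised of 98 (Dio2 in AS and Glul in MG). Glul, which makes glutamine, rose in MG by 0.80 and was lost without naive 1, naive 2, naive 3, naive 4, seizure 1 or seizure 2 (0.68 to 0.91, adjusted p 0.0674 to 0.999).

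The share of cells with a UMI was measured after thinning each cell to 600 UMIs, which left out no AS, EN or MG cell. Nfkbia was found in 81.8% ± 2.52 (SD, n = 2) of seizure EN cells and 52.0% ± 9.02 (n = 5) of naive ones, and in 46.5% ± 6.35 against 11.6% ± 4.94 of MG cells. Fos was found in 14.8% ± 1.63 of seizure AS cells and 1.26% ± 0.53 of naive ones, and its lowest seizure share, in MG, was 0.946% ± 0.613 against 0 of all naive MG cells. The groups did not overlap in these comparisons. The exact two-sided permutation p was 0.0952 in each, the smallest that 2 libraries against 5 allow (adjusted over 28 tests 0.148), so this measure could not pass the threshold.

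The saline-injected Act-Seq library was in another table without class names, so its cells were placed in classes by their profiles, a step that returned 94.0% to 100% of seizure cells of known class. Its level lay within the naive range in 90 of the 124 called pairs, below it in 10, and above it but under both seizure libraries in 21. In 3 pairs it lay above the naive range and at or above a seizure library (Adrb1 in MG, and Id3 and Meg3 in EN). Id3 was lowered by seizure in EN, so its saline level there lay on the other side of the naive range from the seizure libraries. Levels below the naive range were not compared with the seizure libraries. It is a single library and entered no test.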

How the data were processed

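Drop-seq UMI counts per cell and gene were used as deposited by the authors, in a table of 20679 cells whose names carry the library and class. Reads were handled with bcl2fastq 2.17.1.14, STAR 2.5.0a and mm10, per the submitters' processing notes, which give no roles, and the cells in the authors' table hold at least 430 genes each. No doublet caller was run here. Libraries of the compared groups shared at most 2 cell barcodes in that table. The members and gene lists were chosen with earlier results of these data known.

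Counts were summed per library and class with at least 10 cells and tested in edgeR 4.0.16 (R 4.3.3) by the quasi-likelihood test, with TMM scaling and the default filter on low counts. The naive, seizure, immobilization and odor libraries shared one estimate of the spread (11 residual degrees of freedom, 8 in MU), and p-values were adjusted by Benjamini and Hochberg within a class at 0.05. The standard error is the log2 change divided by the square root of the F statistic. The difference between classes was fitted over all library and class sums with a library block. Genes were named if they passed in 3 or more classes, were among the 5 of smallest p per direction and class without overlap, among the 5 of smallest p whose change differed from other classes, or belonged to a gene list; 1 gene that met this rule is not reported here. Intervals are 95% and cover counting error only, as does the floor of 3 counts. On counts simulated for AS with known changes, the test recovered 88% of the genes with a log2 change of 2 and 50% with a change of 1, and for MU 67.0% and 5.62%.

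Alternatives were DESeq2 1.42.0, RLE scaling, no filter, the 2 groups alone, age as a covariate, a replicate block, at least 30 cells, leaving out the 5% of cells with most UMIs, the neuron table, parts of class N and each library left out. In the dissociation table, cell names of the conventional saline library and of seizure 1 share 1115 barcodes, so that table was used only for the levels of the saline-injected library.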

Additional observations from a re-analysis of the deposited data

Results flagged for a closer look

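Among the naive libraries of 97 named class-gene pairs, 20 had a library far from the others of its group. By chance the rule flags about 1 in 20 groups, but that rate was not checked for these pairs. They were chosen by their calls, and some flags rest on levels at or near 0. Of the 20, 9 were naive 2, 7 naive 5, 3 naive 3 and 1 naive 4. Naive 2 was high for Cyr61 (73.4 CPM, next 36.5), Tsc22d3 (578, next 293) and Csrnp1 (12.0, next 5.64) in AS, for Nfkbia (2308, next 1330) and Nr4a1 (54.1, next 7.25) in EN, for Dusp1 (4.005, others 0) in MG, and for Arl4d (61.6, next 14.4), Polr3e (332, next 155) and Sgk1 (1619, next 203) in OL. Naive 5, which held 230 cells, was high for Senp8 (56.4 CPM, next 21.6) and Zfp36l2 (135, next 87.3) in AS and for Dusp1 (196, next 58.0) and Jun (648, next 287) in EN. It was low for Nfkbia (42.4 CPM, next 236) in MG and for Egr1 (0, next 24.3) and Fosb (0, next 2.15) in class N. Naive 3 was high for Egr1 (13.1 CPM, next 5.64) and Arl4d (0.939, others 0) in AS and low for Btg2 (83.1, next 127) in MG, and naive 4 was high for Cdkn1a (22.7, next 2.93) in OL.

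In 19 named pairs the change in a class differed from the mean change of the other classes by edgeR's quasi-likelihood test. In AS these were Arl4d (4.74, adjusted p = 3.21e-05) and Txnip (1.67, 0.0297). In EN they were Tmcc3 (2.04, 9.81e-05), Meg3 (2.61, 0.000511), S1pr1 (1.31, 0.00237) and Id3 (-1.25, 0.00528). In MG they were Ddit4 (2.41, 2.11e-07), Tsc22d3 (1.94, 6.66e-07), Arrdc3 (2.58, 7.43e-05), Arl4c (1.69, 0.00276) and Jdp2 (2.95, 0.00301). In MU they were Jun (3.39, 2.12e-05), Cyr61 (4.23, 2.12e-05), Errfi1 (2.62, 3.32e-05), Mt1 (2.05, 0.000265) and Mt2 (2.29, 0.00249). In OL they were Polr3e (1.97, 1.22e-06), Hist1h1c (1.42, 0.0073) and Phactr3 (1.29, 0.00772). Without seizure 2 the difference of Meg3 was -0.04. The differences of Txnip, S1pr1, Id3, Arl4c, Jdp2, Hist1h1c and Phactr3 were each lost without seizure 1, and all of these but S1pr1 and Jdp2 also without seizure 2. Txnip was also lost without naive 1, naive 3, naive 4 or naive 5, and Arl4c without naive 2, naive 3, naive 4 or naive 5. Jdp2 was also lost without naive 1, Hist1h1c without naive 2 or naive 3, and Phactr3 without naive 4. In the fit without the library block 5 of the 19 differences did not pass: Txnip, Id3, Mt2, Hist1h1c and Phactr3 (adjusted p 0.0795 to 0.297).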

How the results depend on the processing

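The number of genes past the threshold moved by over 1.5 times from 38 in AS to 22 with DESeq2, 61 with no filter and 22 with the naive and seizure libraries only, from 7 in MU to 24 with no filter and 13 without the 5% of cells with most UMIs, and from 9 in OL to 5 with DESeq2, 15 with no filter and 5 with the 2 groups only. OPC went from 5 to 2 with DESeq2 and 11 with no filter. Class N went from 14 to 7 with DESeq2, 29 with no filter, 8 with age as a covariate and 8 in the neuron table. It went to 1 in cells with more neuron markers, an alternative chosen after seeing the data, where Egr1 alone of the 14 was tested. Among the 2 groups, only seizure 1 was of another age. With each library left out, counts ranged from 19 to 51 in AS, 12 to 30 in EN, 12 to 26 in MG, 6 to 10 in MU, 4 to 12 in OL, 2 to 13 in OPC and 8 to 15 in class N, and class differences from 19 to 89, against 57 (28 with no library block). The lowest counts came without seizure 2 in AS, EN, MG, OPC and the differences (19), and without seizure 1 in OL and class N, the differences falling to 35 without seizure 1. The highest in OPC (13) and the differences (89) came without naive 3, which gave 9 in class N, and OPC fell to 3 without naive 4 or seizure 1. Where a single seizure library was left, it was assumed to vary like the other groups.

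With a replicate block the counts were 34 in AS, 32 in EN, 24 in MG, 7 in MU, 8 in OL, 5 in OPC and 10 in class N. Same-numbered naive and seizure libraries deviated from their group means with correlations of -0.131 to 0.167. With 2 seizure libraries, whose deviations mirror each other, these values cannot tell whether the numbers pair them. Under settings other than leave-outs, 684 values for named pairs kept direction and side of the threshold and 97 no longer passed. With DESeq2, 28 named pairs did not pass (adjusted p 0.0592 to 1.00) and 6 had no adjusted p: Fosb, Atf3 and Cyr61 in EN, and Arrdc3, Dusp1 and Jdp2 in MG. The 1 change that reversed did so without seizure 2: in EN, Meg3 ranged from -0.23 (without seizure 2) to 3.58 (without seizure 1), and its class difference from -0.0402 to 3.88. The share of OL cells with a Tsc22d3 UMI was 2.33 points higher in seizure when thinned and 3.96 points lower (difference -3.96) when not. The setting of at least 30 cells left no MU seizure library and gave no value. The cause of these moves was not tested. MU depth limits all its values, with 30526 and 23962 UMIs in the seizure sums.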
